A study of Mus musculus with 4 samples.

Results

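Kupffer cells, the macrophages that live in the liver's blood vessels, were selected from single-cell RNA libraries of mouse liver by a strict marker gate. UMIs are unique transcript molecules, and a droplet barcode was kept if it had 300 genes or more and no more than 20% of UMIs from mitochondria. It entered the gate with at least 2 UMIs summed over Clec4f, Vsig4 and Timd4, making up at least 0.05% of its UMIs, and with no UMI of the lymphocyte and plasmacytoid dendritic cell genes Cd3e, Cd79a and Siglech. The gate held 1260 of 19176 kept barcodes. The levels of the 3 gate genes chose the cells, so these genes are described and support nothing.

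The study asked how genotype and TNF act on the liver transcriptome, with 1 library for each of 4 groups. S/S TNF and A/A TNF were mice of those genotypes 3 h after an injection of 500 ng TNF into the peritoneal cavity, and S/S baseline and A/A baseline were mice of the same genotypes without it. All mice were 2 months old, and each library pooled the cells of 2 mice, so there were no replicates and no difference could be tested. Digested livers went through low-speed spins, a density step against dead cells and a flow sort toward live cells and macrophages. What the letters A and S denote, the strain and the sex are not given in the sources used here. Every interval in brackets is a 95% interval for counting error alone. It leaves out the spread between barcodes, between mice and between preparations.

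Kupffer cells sit in the sinusoid and clear bacteria, old red cells and debris from portal blood. Clec4f is a lectin that in mice marks them, Vsig4 is a receptor for complement-coated particles, and Timd4 binds phosphatidylserine on dying cells and is typical of long-resident macrophages. TNF, bound by its receptors, frees the transcription factor NF-kB from its inhibitors, and NF-kB turns on chemokines, cytokines and its own inhibitors within hours.

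The kept barcodes of the 4 libraries held 20514857 to 53969689 UMIs and the gated ones 1390213 in S/S TNF, 2446412 in A/A TNF, 357480 in S/S baseline and 1014532 in A/A baseline. Median depth in the gate was 3078, 2997.5, 1515.5 and 2263 UMIs in that order, and the median mitochondrial share was 5.59, 5.92, 4.14 and 1.99%. The S/S baseline gate held the fewest UMIs, so that a gene with no UMI there could still lie at up to 8.39 CPM (3 UMIs). CPM are UMIs per 1000000 UMIs summed over the gated barcodes of 1 library. No gated barcode sequence occurred in more than 1 library, while 2 to 11 kept ones did per pair of libraries. The 2 TNF libraries were counted by one software version and the 2 baseline libraries by a later one, so treatment and version cannot be told apart.

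Gated barcodes made up a smaller share of the S/S libraries than of the A/A libraries. They were 207 of 5528 kept barcodes in S/S TNF (3.74% [3.26 to 4.28]) and 498 of 6452 in A/A TNF (7.72% [7.08 to 8.4]). At baseline they were 192 of 4366 in S/S (4.40% [3.81 to 5.05]) and 363 of 2830 in A/A (12.8% [11.6 to 14.1]). These shares depend on the sort, on how many other cells entered each library and on depth, whose part was not tested. With every barcode thinned to 1000 UMIs before gating, the shares were 1.99% in S/S TNF, 4.81% in A/A TNF, 2.84% in S/S baseline and 10.8% in A/A baseline.

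The 3 gate genes did not move together. Clec4f (ENSMUSG00000014542.4) was at 513 CPM in S/S TNF against 1376 CPM in S/S baseline, and at 926 CPM in A/A TNF against 2173 CPM in A/A baseline, lower in both TNF libraries. Vsig4 (ENSMUSG00000044206.4), at 420.1 CPM in S/S TNF against 1153 CPM in S/S baseline, and at 445 CPM in A/A TNF against 1382 CPM in A/A baseline, was lower likewise. Timd4 (ENSMUSG00000055546.7) ran the other way, at 519 CPM in S/S TNF against 238 CPM in S/S baseline, and at 512 CPM in A/A TNF against 380.5 CPM in A/A baseline. In the barcodes that also had Clec4f, Timd4 stood at 339.9 CPM in S/S TNF against 228 in S/S baseline, and at 363 CPM in A/A TNF against 355 in A/A baseline. Barcodes that carried Timd4 alone of the 3 genes numbered 33 in S/S TNF (15.9% of the gate) and 35 in A/A TNF (7.03%), against 3 in S/S baseline and 4 in A/A baseline. All 3 genes were seen together in 45 barcodes of S/S TNF, 201 of A/A TNF, 28 of S/S baseline and 157 of A/A baseline.

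**Figure D1:**
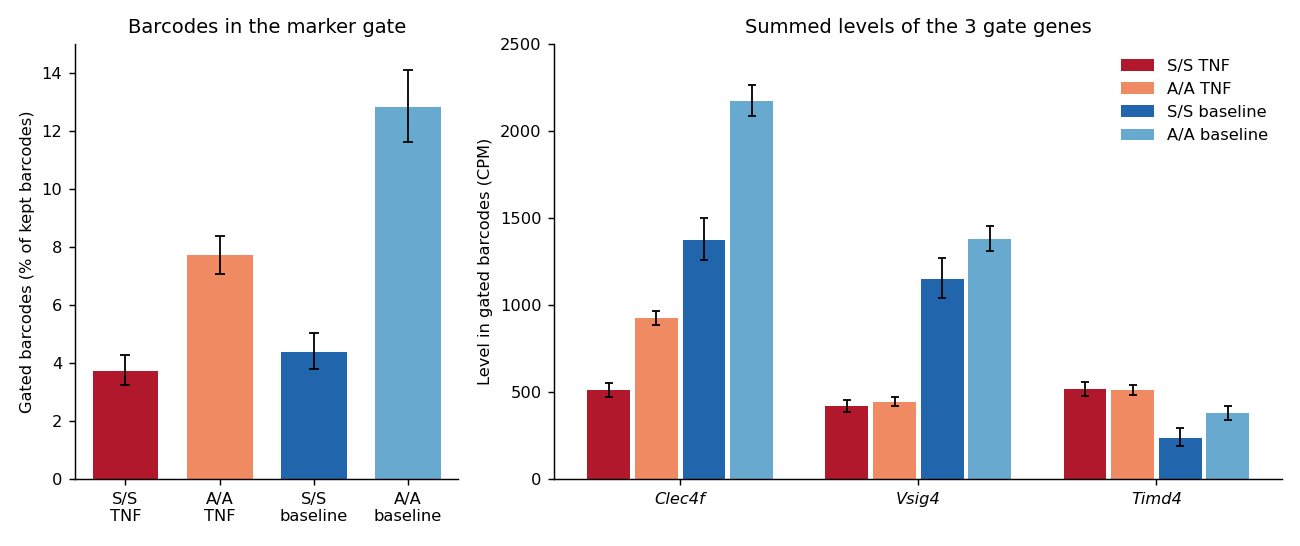
Left, gated barcodes as a percent of kept barcodes in each library, and right, the summed level (CPM) of each gate gene in the gated barcodes, with error bars for the 95% counting interval and 1 library per bar. The S/S bars are below the A/A bars in the left panel (3.74 and 4.40% against 7.72 and 12.8%), and Clec4f and Vsig4 are lower in the TNF libraries while Timd4 is not.

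At the edge of the gate, barcodes with exactly 2 gate UMIs numbered 44 in S/S TNF, 85 in A/A TNF, 53 in S/S baseline and 36 in A/A baseline, and barcodes left out with 1 gate UMI numbered 289, 311, 122 and 106. The complement genes C1qa, C1qb and C1qc, which tissue macrophages make, took a median of 0.302, 0.408, 0.729 and 0.249% of the UMIs of the barcodes just inside, in the same order. Just outside they took 0.0234, 0.0168, 0.202 and 0.0045%.

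The label was checked against markers that the gate did not use. Of 22 Kupffer cell genes, 22 had UMIs in the gate of every library, and together they stood at 5534 CPM in S/S TNF, 6350 in A/A TNF, 8773 in S/S baseline and 8565 in A/A baseline. Outside the gate they stood at 744, 603, 546 and 381 CPM. General macrophage genes were at 14668 to 16776 CPM in the gate, and at 10956, 7645, 5254 and 2741 CPM outside it. Barcodes with at least 3 C1q UMIs and no gate gene held this list at 20229, 16686, 20647 and 16801 CPM. They were chosen by C1q genes that the list includes. The macrophage list thus does not set the gate apart from them. Per barcode, thinned to 1000 UMIs, the median number of Kupffer cell UMIs was 6, 7, 8 and 9, against 0 in all 4 libraries for barcodes of B cells. B cell barcodes serve here as a rough gauge of free RNA, and in sum they held the list at 302, 213, 307 and 182 CPM. The C1q barcodes with no gate gene held the Kupffer cell list at 1167, 1413, 2354 and 1755 CPM.

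Some gated barcodes of the TNF libraries went against the label. Barcodes without any Clec4f UMI numbered 77 of 207 in S/S TNF (37.2%), 72 of 498 in A/A TNF (14.5%), 45 of 192 in S/S baseline (23.4%) and 28 of 363 in A/A baseline (7.71%). In S/S TNF they carried 54.9% of the gated UMIs and in A/A TNF 29.7%, against 20.1% in S/S baseline and 7.21% in A/A baseline, and 26 and 24 of them in the TNF libraries had at least 10000 UMIs, against 0 and 1 at baseline. This split, and the genes named for it, were chosen after their values were seen. Prg4, a lubricating proteoglycan, stood at 1810 CPM in the S/S TNF barcodes without Clec4f and at 0 in those with it, and in A/A TNF at 1647 and 2.91 CPM. Alox15, a lipoxygenase, stood at 583 and 0 CPM in S/S TNF and at 376 and 0.581 CPM in A/A TNF.

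The UMIs of these genes sat in very few barcodes. Those with at least 3 UMIs summed over Prg4, Alox15 and Gata6, genes known as background from the macrophages of the peritoneal cavity, numbered 8 in S/S TNF, 6 in A/A TNF and 0 in either baseline library. None of them had a Clec4f UMI and all had Timd4. At a median of 29982 UMIs in S/S TNF and 33708.5 in A/A TNF, they held 17.3 and 7.32% of the gated UMIs and 26.2 and 19.1% of the gated Timd4 UMIs. The acute phase protein Saa3 was seen in 30 of the 77 S/S TNF barcodes without Clec4f (39.0%) and 23 of the 72 A/A TNF ones (31.9%). With Clec4f it was seen in 42 of 130 (32.3%) and 107 of 426 (25.1%), but its level was 15620 and 8590 CPM without Clec4f, against 385 and 148 CPM with it. In S/S baseline the 45 barcodes without Clec4f had levels near those with it for Cd5l (2627 against 2602 CPM), C1qa (2265 against 2508 CPM) and Hpgd (903 against 834 CPM), and more Marco (2181.9 against 1415 CPM). Folr2, a folate receptor of resident macrophages, and the scavenger receptor Marco were lower in the barcodes without Clec4f of the TNF libraries, with Folr2 at 22.3 and 9.65 CPM against 201 and 123 CPM. Results below are for the whole gate unless the barcodes with Clec4f are named.

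**Figure D2:**
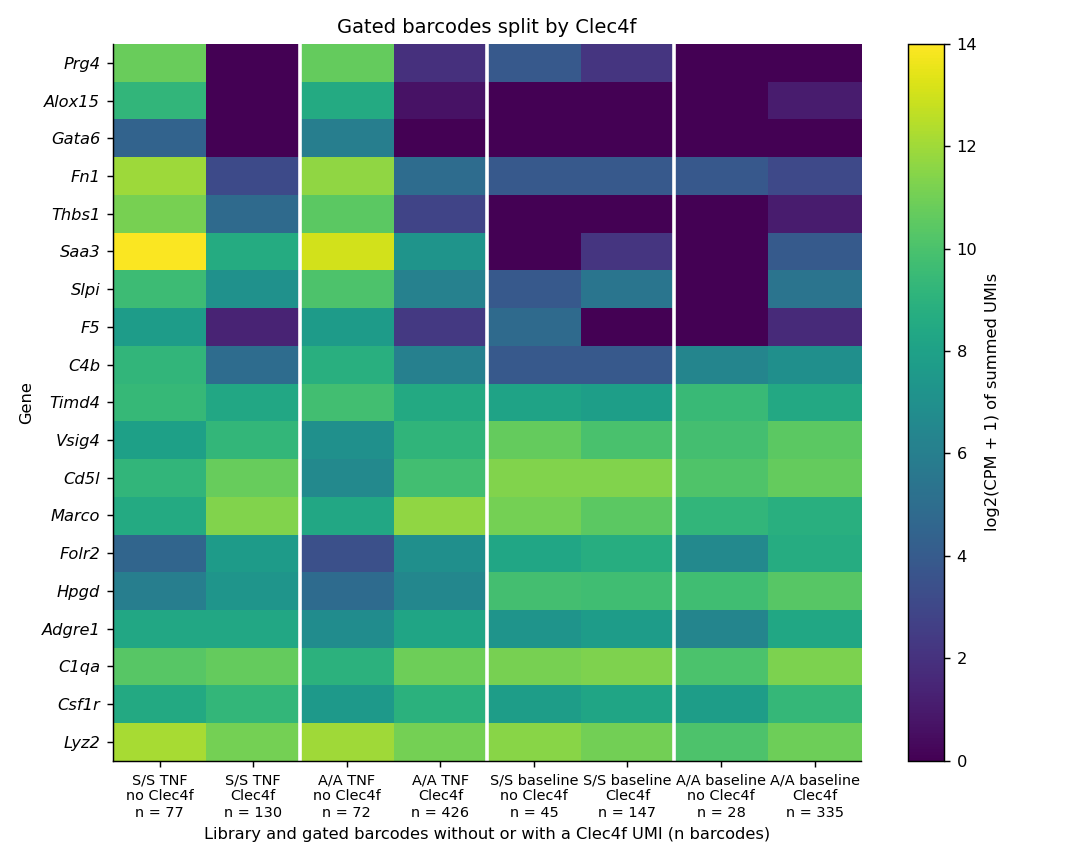
Levels of 19 genes, as log2(CPM + 1) of summed UMIs, in the gated barcodes without and with a Clec4f UMI of each library (columns, number of barcodes under each). Prg4, Alox15 and Gata6 are strongest in the columns without Clec4f of the TNF libraries, while within these libraries Folr2, Marco and Hpgd are stronger in the columns with Clec4f.

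Genes of other cell types were present in the gate, at levels that differed between the libraries. Neutrophil genes stood at 1536 CPM in S/S TNF, 3381 in A/A TNF, 1376 in S/S baseline and 843 in A/A baseline, and 80, 229, 7 and 6 barcodes had at least 3 of their UMIs. Outside the gate these genes stood at 19757, 26183, 2813 and 1480 CPM. Endothelial genes stood at 739, 1335, 179 and 1091 CPM in the gate, with 63, 206, 6 and 84 barcodes at 3 UMIs or more. Kdr and Flt4, which mark endothelium, had no UMI in the S/S baseline gate. Red cell genes stood at 5842, 2637, 14608 and 38.4 CPM, with 117, 16, 112 and 0 barcodes at 3 UMIs or more. The top barcode held 26.7, 65.0, 53.1 and 5.13% of the red cell UMIs, so these sums lean on few barcodes in A/A TNF and S/S baseline. Hepatocyte genes stood at 949, 1344, 764 and 2396 CPM. Stellate cell, dendritic cell, B cell and T or NK cell genes were each at 694 CPM or less in every library. Leaving out barcodes with at least 3 UMIs of the neutrophil, endothelial, B cell or T and NK cell lists left 91, 165, 170 and 266 barcodes, called the marker-filtered barcodes here. This took out 116, 333, 22 and 97 barcodes, so it fell unequally on the TNF libraries. The limit is the same at any depth, so deeper barcodes reach it more easily. Neutrophil genes stood at 1400, 1238, 128 and 164 CPM in B cell barcodes, and the part of free RNA in this filter was not tested.

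The TNF question was put within each genotype. Genes with 20 UMIs or more over both libraries were compared. In S/S TNF, 2102 of 6715 genes were over 2-fold higher (31.3%) and 837 over 2-fold lower (12.5%) than in S/S baseline. In A/A TNF, 1780 of 8900 genes were over 2-fold higher (20%) and 1028 over 2-fold lower (11.6%) than in A/A baseline. The S/S pair is unequal in depth, so a gene could enter it through the TNF library alone. The median log2 ratio of all genes was 0.34 in S/S and 0.17 in A/A. With ratios centred on it, 1553 and 1353 genes were higher and lower in S/S TNF, and 1427 and 1342 in A/A TNF. The median differed with intron length, at -0.27 in S/S and 0.13 in A/A for genes with under 1 kb of intron. For genes with over 100 kb it was 0.47 and -0.15. Among genes with under 10 kb, 24.1% were higher and 18.9% lower in S/S TNF, and 22 and 12.3% in A/A TNF. The part of intron length was not tested. Ratios below are log2 ratios of CPM with a pseudocount of 1 CPM.

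The NF-kB and TNF response was higher in TNF as a group. Of its 35 genes, 34 were over 2-fold higher in S/S TNF (median log2 ratio 3.24, or 3.20 with the 5 genes at 0 in S/S baseline set at their bound) and 33 in A/A TNF (median 2.25), with none over 2-fold lower, where 31.3 and 20% of all genes were higher. Among barcodes with Clec4f the counts were 35 and 33 of 35. The marker-filtered barcodes gave 27 of 28 genes measured in S/S and 27 of 31 in A/A. Cxcl2, a chemokine that draws neutrophils, was at 1537 CPM in S/S TNF against 14 CPM in S/S baseline, and at 771 CPM in A/A TNF against 12.8 CPM in A/A baseline. Its log2 ratio was 6.68 [5.56 to 8.4] in S/S, against 5.81 [5.13 to 6.82] in A/A, and 6.16 [5.01 to 7.86] and 5.05 [4.37 to 6.07] in the barcodes with Clec4f. Outside the gate Cxcl2 was higher in the TNF libraries too, at 1777 CPM in S/S TNF, 1327 in A/A TNF, 24.8 in S/S baseline and 5.54 in A/A baseline.

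Sdc4, a heparan sulfate proteoglycan of the cell surface, was at 993 CPM in S/S TNF against 19.6 CPM in S/S baseline, and at 794 CPM in A/A TNF against 25.6 CPM in A/A baseline. In barcodes thinned to 1000 UMIs it was seen in 45.3% [38.1 to 52.6] of S/S TNF, 52.0% [47.3 to 56.6] of A/A TNF, 1.39% [0.169 to 4.93] of S/S baseline and 1.5% [0.489 to 3.47] of A/A baseline, so the difference lay in many barcodes. In B cell barcodes the shares were 13.1, 11.3, 9.82 and 7.85%. Tnfaip3, the ubiquitin-editing inhibitor A20 that ends NF-kB signalling, was at 344 CPM in S/S TNF against 0 CPM in S/S baseline, and at 228 CPM in A/A TNF against 23.7 CPM in A/A baseline. It was at least 41.0-fold higher in S/S TNF than S/S baseline, where it had no UMI, and its A/A ratio was 3.22 [2.68 to 3.93]. Tnf itself was at 124 CPM in S/S TNF against 0 CPM in S/S baseline, and at 98.5 CPM in A/A TNF against 15.8 CPM in A/A baseline. Of its 16 UMIs in A/A baseline, 81.2% sat in 1 barcode.

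The promoters of 3 of these genes are shown because the group moved together and NF-kB is its known regulator. Letters come from RefSeq promoter windows of the build GRCm38.p6, from 250 bases before to 50 after each start, searched on both strands for the NF-kB motif. Only bases before the start are printed, and capitals mark the matches. The Cxcl2 stretch (chr5:90903769-90903898, plus strand) holds 2 overlapping matches, the Tnfaip3 stretch (chr10:19015411-19015540, minus strand) 3, of which 2 overlap, and the Sdc4 stretch (chr2:164443189-164443318, minus strand) 1.
Cxcl2: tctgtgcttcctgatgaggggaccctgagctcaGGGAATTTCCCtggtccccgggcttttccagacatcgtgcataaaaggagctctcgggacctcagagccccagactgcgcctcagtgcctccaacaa
Tnfaip3: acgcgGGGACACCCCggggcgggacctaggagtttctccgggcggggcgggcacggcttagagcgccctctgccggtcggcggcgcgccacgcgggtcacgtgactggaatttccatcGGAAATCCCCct
Sdc4: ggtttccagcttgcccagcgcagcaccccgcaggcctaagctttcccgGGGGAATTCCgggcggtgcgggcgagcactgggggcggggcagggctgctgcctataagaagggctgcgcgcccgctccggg
Of the 33 windows found for the list, 19 held the motif (57.6%), against 2779 of all 32851 windows (8.46%). By gene, 17 of 29 genes with a window did. Of the Kupffer cell genes 1 of 18 had it, of the interferon-stimulated genes 6 of 24, and of the oxidative stress genes 4 of 20. The first list was drawn up as an NF-kB response list, so its share is described and not used as support. A match describes the letters and does not show binding. Ccl2 has no entry.

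Chemokines as a group were mixed. Of 17 listed, 14 reached 20 UMIs in S/S, with 9 over 2-fold higher and 1 lower in S/S TNF, and of 15 in A/A, 10 were higher and 1 lower in A/A TNF, against 31.3 and 20% of all genes higher. Cxcl13, which draws B cells, was at 410.0 CPM in S/S TNF against 11.2 CPM in S/S baseline, and at 1681 CPM in A/A TNF against 104 CPM in A/A baseline. It stood at 23.9 and 39.9 CPM outside the gate in S/S TNF and A/A TNF. In S/S TNF 64.9% of its UMIs sat in 1 barcode. Ccl2, which draws monocytes, was at 113 CPM in S/S TNF against 25.2 CPM in S/S baseline, and at 262 CPM in A/A TNF against 10.8 CPM in A/A baseline. Ccl5 was the chemokine lower in S/S TNF, at 78.4 CPM in S/S TNF against 545 CPM in S/S baseline, and at 125 CPM in A/A TNF against 95.6 CPM in A/A baseline, and 50.5 and 52.3% of its S/S TNF and S/S baseline UMIs sat in 1 barcode each.

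Cytokines and growth factors gave 11 of 16 measured genes over 2-fold higher in S/S TNF and 12 of 19 in A/A TNF, with 1 lower in each, against 31.3 and 20% of all genes higher. The marker-filtered barcodes gave 4 of 8 and 3 of 9, where 21.3 and 15.9% of all genes were higher. Il6, an inducer of the acute phase, was at 196 CPM in S/S TNF against 0 CPM in S/S baseline, and at 68.7 CPM in A/A TNF against 7.89 CPM in A/A baseline. With Clec4f it stood at 68.6 CPM in S/S TNF and 61.6 in A/A TNF. Il1b, the interleukin 1 beta gene, was at 688 CPM in S/S TNF against 154 CPM in S/S baseline, and at 503 CPM in A/A TNF against 660.4 CPM in A/A baseline, a log2 ratio of 2.15 [1.77 to 2.58] in S/S, against -0.39 [-0.53 to -0.25] in A/A. The barcodes with Clec4f gave 2.14 [1.73 to 2.60] and -0.28 [-0.43 to -0.14]. Of the baseline libraries, A/A was thus the one with high Il1b.

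The metallothioneins were also higher. Mt1 and Mt2 bind zinc and copper. Mt1 was at 8326 CPM in S/S TNF against 229 CPM in S/S baseline, and at 4215 CPM in A/A TNF against 169 CPM in A/A baseline, and Mt2 at 2599.6 CPM in S/S TNF against 11.2 CPM in S/S baseline, and at 1741 CPM in A/A TNF against 13.8 CPM in A/A baseline. Log2 ratios of Mt2 were 7.74 [6.50 to 9.74] in S/S, against 6.88 [6.23 to 7.85] in A/A. After thinning, Mt1 was seen in 81.8% of S/S TNF, 87.2% of A/A TNF, 20.1% of S/S baseline and 14.4% of A/A baseline barcodes, against 23.4, 20.7, 2.17 and 0.924% of B cell barcodes. The Mt2 stretch (chr8:94172378-94172617, plus strand) is printed because Mt2 was among the highest genes in both genotypes, with 5 matches to the core of the metal response element, TGCNCNC on either strand, in capitals.
Mt2: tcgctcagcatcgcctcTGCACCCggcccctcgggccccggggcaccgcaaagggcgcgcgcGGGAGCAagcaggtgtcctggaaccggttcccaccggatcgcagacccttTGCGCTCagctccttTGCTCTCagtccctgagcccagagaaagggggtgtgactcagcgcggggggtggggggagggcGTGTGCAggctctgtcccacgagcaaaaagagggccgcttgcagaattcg
Of all windows, 51.0% hold that short motif at least once.

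Of 23 genes on the NRF2 and oxidative stress list, NRF2 being the main regulator of antioxidant genes, 8 of 21 measured were over 2-fold higher in S/S TNF and 10 of 21 in A/A TNF, with 1 lower in each. The S/S share is near that of all genes (31.3%). Txnrd1, a thioredoxin reductase, was at 509 CPM in S/S TNF against 86.7 CPM in S/S baseline, and at 560.4 CPM in A/A TNF against 89.7 CPM in A/A baseline. Of the heme and iron handling genes 7 of 22 were over 2-fold higher in S/S TNF and 11 of 23 in A/A TNF, with 3 lower in each. In S/S these shares are near those of all genes (31.3% higher, 12.5% lower). Heme oxygenase Hmox1, which opens the heme ring, was at 4052 CPM in S/S TNF against 2045 CPM in S/S baseline, and at 5168 CPM in A/A TNF against 937 CPM in A/A baseline. Its ratio was 0.99 [0.88 to 1.10] in S/S, against 2.46 [2.37 to 2.56] in A/A, and S/S baseline was already above A/A baseline. In the marker-filtered barcodes it stood at 7219, 7983, 2213 and 1067 CPM in S/S TNF, A/A TNF, S/S baseline and A/A baseline. Ferroportin Slc40a1, the exporter of the iron that heme breakdown frees, was at 419 CPM in S/S TNF against 604 CPM in S/S baseline, and at 461 CPM in A/A TNF against 1112 CPM in A/A baseline. With Clec4f it was nearly level in S/S, at 538 CPM in S/S TNF against 602 in S/S baseline, and lower in A/A, at 632 CPM in A/A TNF against 1174 in A/A baseline.

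Interferon-stimulated genes went the other way. Of 30 measured in each genotype, 14 were over 2-fold lower in S/S TNF and 10 in A/A TNF, with 2 and 3 higher, and the medians were -0.75 and -0.63. Of all genes 12.5% were lower in S/S TNF and 11.6% in A/A TNF. With Clec4f, 12 of 27 were lower in S/S TNF (median -0.35) and 10 of 30 in A/A TNF (median -0.53). Of all genes in those barcodes, 15.3 and 13.5% were lower. Ifi27l2a, an interferon-induced mitochondrial protein, was at 228 CPM in S/S TNF against 2151 CPM in S/S baseline, and at 44.6 CPM in A/A TNF against 1778 CPM in A/A baseline. Irf7, the transcription factor that amplifies type I interferon, was at 59.7 CPM in S/S TNF against 397 CPM in S/S baseline, and at 26.2 CPM in A/A TNF against 372 CPM in A/A baseline. Ifi44l had no UMI in either TNF library and was at least 36.3-fold lower in S/S and at least 55.5-fold lower in A/A. In contrast the guanylate-binding protein Gbp5 was at 145 CPM in S/S TNF against 14 CPM in S/S baseline, and at 305 CPM in A/A TNF against 31.5 CPM in A/A baseline. Per thinned barcode, interferon list UMIs had a median of 2 in S/S TNF, 3 in A/A TNF, 6 in S/S baseline and 5 in A/A baseline, and NF-kB list UMIs 13, 14, 1 and 2. Of the thinned S/S TNF barcodes, 182 of 192 (94.8%) were above the 95th percentile of S/S baseline for the NF-kB list. Of the A/A TNF ones 403 of 460 (87.6%) were above that of A/A baseline. The percentile was 4 UMIs in S/S baseline and 8 in A/A baseline, so these 2 shares do not compare the genotypes.

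**Figure D3:**
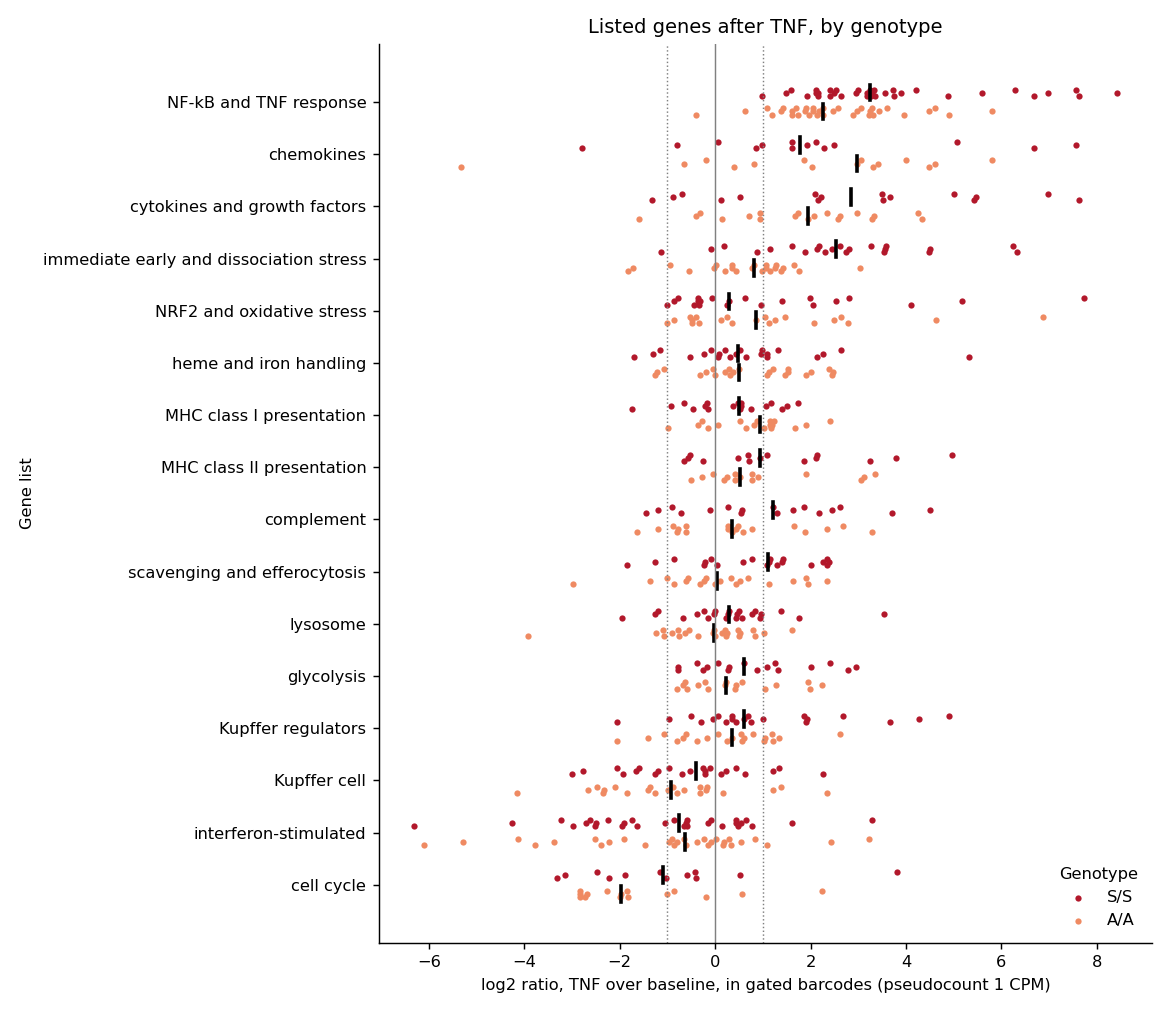
Log2 ratio of TNF over baseline in the gated barcodes for the measured genes of 16 lists (points), S/S above A/A in each row, with the list median as a black bar and dotted lines at 2-fold. NF-kB and TNF response genes lie to the right (medians 3.24 in S/S and 2.25 in A/A) and interferon-stimulated genes have medians left of 0 (-0.75 in S/S and -0.63 in A/A).

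Kupffer cell identity genes split. Of the 22, 8 were over 2-fold lower and 3 higher in S/S TNF, and 10 lower and 3 higher in A/A TNF, where 12.5 and 11.6% of all genes were lower. With Clec4f, 6 of 20 were lower in S/S TNF (median -0.06) and 9 of 22 in A/A TNF (median -0.68). Of all genes in those barcodes, 15.3 and 13.5% were lower. The marker-filtered barcodes gave 5 of 19 in S/S TNF (median 0.09) and 8 of 22 in A/A TNF (median -0.61). There 16.2 and 14.9% of all genes were lower. Hpgd, which breaks down prostaglandins, was at 104 CPM in S/S TNF against 848 CPM in S/S baseline, and at 70.3 CPM in A/A TNF against 1264 CPM in A/A baseline. Folr2 was at 103 CPM in S/S TNF against 397 CPM in S/S baseline, and at 89.5 CPM in A/A TNF against 389 CPM in A/A baseline. Id3, a transcriptional regulator that Kupffer cells need, was at 85.6 CPM in S/S TNF against 358 CPM in S/S baseline, and at 180.3 CPM in A/A TNF against 478 CPM in A/A baseline. In the barcodes with Clec4f these 3 genes kept their direction, with ratios in S/S of -2.42 [-2.78 to -2.08], -1.06 [-1.44 to -0.69] and -1.68 [-2.14 to -1.25], and in A/A of -3.87 [-4.14 to -3.64], -1.73 [-1.99 to -1.5] and -1.28 [-1.49 to -1.08]. Over the whole gate Clec1b, the receptor for podoplanin, and Apoc1, an apolipoprotein, were lower in both genotypes too, with S/S ratios of -1.67 and -1.90. Apoc1 stood at 168 CPM without Clec4f and 603 with it in S/S TNF, and at 113 and 775 CPM in A/A TNF. The part of the barcodes without Clec4f in its ratio was not tested.

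Whether the identity genes as a sum were lower depended on which gated barcodes were counted. In the barcodes with Clec4f the 22 genes together stood at 8783 CPM in S/S TNF, 8442 in A/A TNF, 8672 in S/S baseline and 8838 in A/A baseline, which is close to level. The sum includes Marco, which was higher in both TNF libraries in these barcodes. It therefore does not show that the other genes kept their level. Marco ran against Hpgd and Folr2. It was at 1359.5 CPM in S/S TNF against 1569 CPM in S/S baseline, and at 2361 CPM in A/A TNF against 461 CPM in A/A baseline, and in the barcodes with Clec4f at 2557 CPM in S/S TNF against 1415 in S/S baseline and at 3213 in A/A TNF against 450.4 in A/A baseline. The S/S ratio was thus -0.21 [-0.34 to -0.07] over the whole gate and 0.85 [0.70 to 1.01] with Clec4f, a change of direction, while the A/A ratio was 2.35 [2.22 to 2.49] and 2.83 [2.69 to 2.98]. Cdh5, VE-cadherin, which mouse Kupffer cells share with endothelium, was at 192 CPM in S/S TNF against 75.5 CPM in S/S baseline, and at 304 CPM in A/A TNF against 115 CPM in A/A baseline. Endothelial genes moved with it in S/S (739 against 179 CPM), and their part in its ratio was not tested.

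Other macrophage functions were described by list, to be read against 31.3% of all genes higher in S/S TNF and 20% in A/A TNF. Scavenging and efferocytosis, the gate gene Timd4 left out, gave 10 of 19 measured genes over 2-fold higher in S/S TNF and 5 of 19 in A/A TNF. The scavenger receptor Msr1 was higher in both, at 350.3 CPM in S/S TNF against 131 CPM in S/S baseline, and at 503 CPM in A/A TNF against 133 CPM in A/A baseline. Complement genes, the gate gene Vsig4 left out, gave 9 of 16 higher in S/S TNF and 5 of 18 in A/A TNF, among them the C5a receptor C5ar1, at 235 CPM in S/S TNF against 42.0 CPM in S/S baseline, and at 257 CPM in A/A TNF against 39.4 CPM in A/A baseline. Antigen presentation by MHC class I gave 5 of 18 in S/S TNF and 9 of 18 in A/A TNF, with H2-K1, a heavy chain, at 937 CPM in S/S TNF against 725 CPM in S/S baseline, and at 1629.7 CPM in A/A TNF against 691 CPM in A/A baseline. MHC class II genes gave 7 of 15 in S/S TNF and 4 of 15 in A/A TNF. With Clec4f the MHC class II counts were 2 of 11 and 1 of 13, and MHC class I gave 2 of 15 and 9 of 18. Of all genes in the barcodes with Clec4f, 29.7% were higher in S/S TNF and 19.5% in A/A TNF. Dendritic cell markers, from another cell type with MHC class II, were higher in TNF too, at 253 CPM in S/S TNF against 33.6 in S/S baseline and at 485 CPM in A/A TNF against 101 in A/A baseline, and their part was not tested. Lysosomal genes were near level, with medians of 0.29 in S/S, against -0.02 in A/A. Cell cycle genes over 2-fold lower in the whole gate were 7 of 12 in S/S TNF and 11 of 15 in A/A TNF. Of all genes 12.5 and 11.6% were lower. With Clec4f the counts were 2 of 8 and 9 of 14, where 15.3 and 13.5% of all genes were lower. Most cell cycle genes were rare, and among those with 100 UMIs or more in the pair the medians were 1.39 in S/S and 0.57 in A/A.

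The remaining lists are also read against 31.3% of all genes over 2-fold higher in S/S TNF and 20% in A/A TNF. Lipid and cholesterol genes gave 10 of 25 higher in S/S TNF and 8 of 24 in A/A TNF. Glycolysis genes gave 7 of 17 in S/S TNF and 5 of 17 in A/A TNF. Protein folding stress genes gave 10 of 20 (4 of 18 with Clec4f) in S/S TNF and 5 of 21 in A/A TNF. In the barcodes with Clec4f 29.7% of all genes were higher in S/S TNF. Cell death and inflammasome genes gave 7 of 20 in S/S TNF and 5 of 21 in A/A TNF, both near the shares of all genes. Among the higher ones was the death receptor Fas, at 96.4 CPM in S/S TNF against 5.59 CPM in S/S baseline. In A/A TNF Fas was at 134 CPM against 5.91 CPM in A/A baseline. Transcriptional regulators of Kupffer cells gave 7 of 21 in S/S TNF, near the share of all genes, and 6 of 21 in A/A TNF. Immediate early and dissociation stress genes gave 18 of 22 in S/S TNF and 10 of 23 in A/A TNF.

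**Figure D4:**
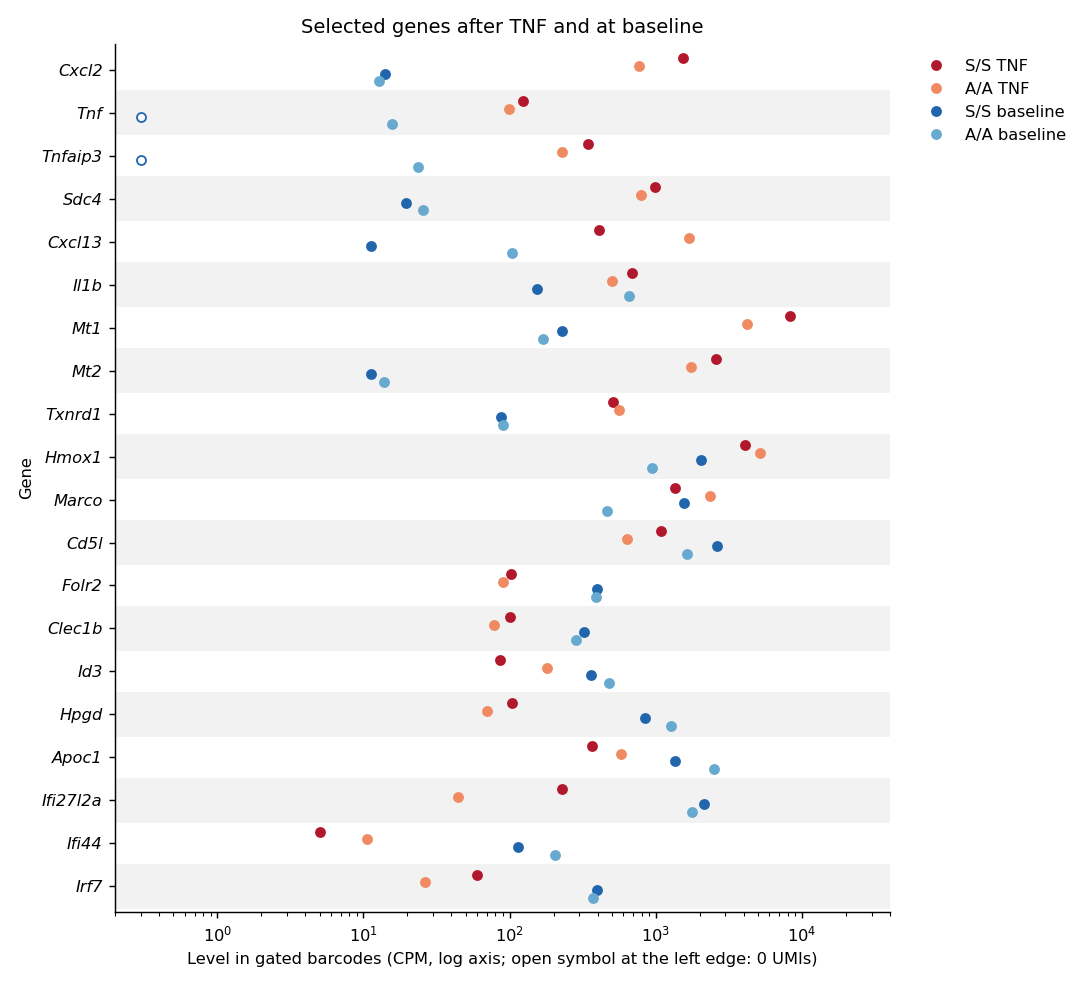
Level (CPM, log axis) of 20 genes in the gated barcodes of each library, 1 point per library, with open symbols for 0 UMIs. The upper genes (Cxcl2 to Txnrd1, Il1b in A/A apart) have their TNF points to the right, and Folr2 to Irf7 have them to the left.

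Among single genes with the highest and lowest ratios, under limits on UMIs, on the share in 1 barcode and on the level outside the gate, 3 patterns need their values side by side. Fn1, fibronectin, and Thbs1, thrombospondin, were among the 10 highest in S/S, with Thbs1 at 1223 CPM in S/S TNF and no UMI in S/S baseline (at least 146-fold). In the barcodes with Clec4f they stood at 7.98 and 27.1 CPM in S/S TNF, so these UMIs lay mostly in the barcodes without it. Next, Akap12, a scaffold protein, Lyve1, a hyaluronan receptor, Selp, P-selectin, and Esm1, endocan, are endothelial genes as background. Akap12 was at 468 CPM in S/S TNF against 5.59 CPM in S/S baseline, and at 716 CPM in A/A TNF against 5.91 CPM in A/A baseline, and in the marker-filtered barcodes at 164, 212, 0 and 0 CPM in S/S TNF, A/A TNF, S/S baseline and A/A baseline. Selp was at 28.8 and 19.5 CPM in the filtered S/S TNF and A/A TNF barcodes, against 327 and 142 in the whole gate. Last, the genes with the lowest ratios were Cmss1, Cdk8, Gphn, Camk1d and Il31ra. Cmss1 was at 7.19 CPM in S/S TNF against 9794 CPM in S/S baseline, and at 4.09 CPM in A/A TNF against 20097 CPM in A/A baseline, and Gphn at 13.7 CPM in S/S TNF against 1295 CPM in S/S baseline, and at 16.4 CPM in A/A TNF against 3872 CPM in A/A baseline. Their annotated introns span 61813 to 454645 bases. They were low outside the gate too, where Cmss1 stood at 7.04, 11.2, 6059 and 14318 CPM in S/S TNF, A/A TNF, S/S baseline and A/A baseline. Whether either software version counted intronic reads is not given in the sources used here, and treatment and version cannot be told apart for these genes.

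The genotype question was put at baseline first. In S/S baseline 352 of 5994 genes were over 2-fold higher than in A/A baseline (5.87%) and 1153 over 2-fold lower (19.2%). The median log2 ratio was -0.17 (-0.12 after TNF), and centred on it the counts were 570 and 904. The baseline ratio also differed with intron length, at a median of 0.38 for genes with under 1 kb of intron and -0.55 for those with over 100 kb. Among 2054 genes with under 10 kb of intron, 185 were higher (9.01%) and 229 lower (11.1%) in S/S baseline. The part of intron length in the counts was not tested.

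Genes named by rank had 100 UMIs or more in the pair and, in the library where they were higher, 20 CPM or more, UMIs in 10 gated barcodes or more, no more than 20% of them in 1 barcode and no higher level outside the gate. Under these limits those highest in S/S included Trem2, Cd63 and Cela1. Trem2, a lipid-sensing receptor, was at 204 CPM in S/S baseline against 47.3 CPM in A/A baseline, and at 55.4 CPM in S/S TNF against 11.0 CPM in A/A TNF. Its ratio was 2.09 [1.56 to 2.67] at baseline and 2.23 [1.68 to 3.02] after TNF, and 1.98 [1.42 to 2.60] and 2.33 [1.71 to 3.13] in the barcodes with Clec4f. Cd63, a membrane protein of late endosomes, was at 221 CPM in S/S baseline against 31.5 CPM in A/A baseline, and at 143 CPM in S/S TNF against 41.7 CPM in A/A TNF. Trem2 and Cd63 were thus higher in S/S in both pairs. Cela1, an elastase, was at 397 CPM in S/S baseline against 83.8 CPM in A/A baseline, and at 38.8 CPM in S/S TNF against 11.4 CPM in A/A TNF. Marco was higher in S/S baseline, with a ratio of 1.76 [1.59 to 1.95], and lower in S/S TNF, at -0.80 [-0.87 to -0.72] (-0.33 [-0.41 to -0.25] with Clec4f). Hmox1 likewise had ratios of 1.12 [0.98 to 1.27] and -0.35 [-0.40 to -0.31].

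Red cell genes were far higher in the S/S than the A/A baseline gate (14608 against 38.4 CPM), and outside it too (26788 against 2487.5 CPM). In the S/S baseline gate 53.1% of their UMIs sat in 1 barcode, though 112 gated barcodes had at least 3, against 0 in A/A baseline. In C1q barcodes without gate genes they stood at 8613 CPM in S/S baseline and 7540 in A/A baseline. The part of red cell genes in these ratios was not tested. Ferritin light chain could not be resolved. Ftl1 was at 20863 CPM in S/S baseline against 3005 CPM in A/A baseline, and at 9415 CPM in S/S TNF against 8242 CPM in A/A TNF, while its near-identical copy Ftl1-ps1 was at 47.6 CPM in S/S baseline against 6625 CPM in A/A baseline, and at 69.1 CPM in S/S TNF against 162 CPM in A/A TNF. The 4 ferritin light chain entries summed to 20910 CPM in S/S baseline against 10429 in A/A baseline (1.0 on the log2 scale) and to 9485 in S/S TNF against 8405 in A/A TNF (0.17). How reads were divided between copies is not known, so only the sum is read.

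Genes lower in S/S baseline included Cd163, the receptor for haemoglobin bound to haptoglobin, at 19.6 CPM in S/S baseline against 164 CPM in A/A baseline, and at 97.1 CPM in S/S TNF against 131 CPM in A/A TNF. Its ratio was -3.0 [-4.40 to -1.99] at baseline and -0.43 [-0.73 to -0.14] after TNF. Gbp2b, a guanylate-binding protein, was at 2.80 CPM in S/S baseline against 108 CPM in A/A baseline, and at 1.44 CPM in S/S TNF against 27 CPM in A/A TNF, lower in S/S in both pairs. It had 1 UMI in S/S baseline, for a ratio of -4.85 [-10.59 to -2.77]. Kdr, Ptprb and Dnase1l3 were lower as well, and the endothelial list as a whole stood at 179 CPM in S/S baseline against 1091 in A/A baseline. Il1b had a ratio of -2.09 [-2.53 to -1.70] at baseline.

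The lists were read against the 19.2% of all genes lower in S/S baseline. Of 21 measured immediate early and dissociation stress genes, 12 were over 2-fold lower and 0 higher in S/S baseline, a median of -1.44. Of 29 NF-kB and TNF response genes, 15 were lower and 3 higher. The barcodes with Clec4f had counts of 10 of 20 and 11 of 26 lower. The marker-filtered barcodes gave 9 of 17 immediate early genes and 5 of 18 NF-kB genes lower (medians -1.04 and -0.49), where 20.1% of all genes were lower, so the NF-kB share was closer to that of all genes there. Nr4a1, an early nuclear receptor, had no UMI in S/S baseline against 56 in A/A baseline (at least 6.58-fold lower). Transcriptional regulators of Kupffer cells gave 9 of 20 lower, or 3 of 16 in the marker-filtered barcodes. Kupffer cell genes gave 4 of 22, near the share of all genes. Lysosome, NRF2, MHC class I and interferon lists had medians between -0.05 and 0.08.

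The same question was put after TNF. In S/S TNF 289 of 8928 genes were over 2-fold higher than in A/A TNF (3.24%) and 596 over 2-fold lower (6.68%), and 388 and 477 when centred. In the marker-filtered barcodes 168 and 363 of 3372 genes were, and only 30 and 53 of these were among the 289 and 596. The NF-kB list had 2 genes higher and 1 lower of 35 (median 0.07). Under the same limits the genes lowest in S/S TNF included Camk2n1, Ehd3, Ephb4, Ltbp4 and Dlc1, and the endothelial list stood at 739 CPM in S/S TNF against 1335 in A/A TNF, whose part in these was not tested. Also among them were Ccnd1, cyclin D1, at 49.6 CPM in S/S TNF against 217 CPM in A/A TNF, with a ratio of -2.11 [-2.51 to -1.77], and Palld, an actin-bundling protein, at 45.3 CPM in S/S TNF against 195 CPM in A/A TNF. Slamf8, a receptor of the SLAM family, was at 33.1 CPM in S/S TNF against 138 in A/A TNF. Cxcl13 was lower in S/S in both pairs, with ratios of -3.11 [-5.13 to -1.82] at baseline and -2.03 [-2.16 to -1.91] after TNF, and -2.74 [-2.97 to -2.54] after TNF in the barcodes with Clec4f.

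Under the limits given above Rgs1 had the highest ratio in S/S TNF. Rgs1, a regulator of G-protein signalling, was at 442 CPM in S/S TNF against 82.6 CPM in A/A TNF. Atf3, a stress-induced repressor, was at 84.9 CPM in S/S TNF against 22.1 CPM in A/A TNF. With Clec4f the ratios were 2.10 [1.82 to 2.42] and 2.21 [1.69 to 2.84]. Glycolysis genes had a median of 0.56, with 3 of 18 over 2-fold higher in S/S TNF, against 3.24% of all genes. The monocyte list stood at 2727 CPM in S/S TNF against 1517 in A/A TNF over the whole gate, but at 426 against 547 CPM in the barcodes with Clec4f.

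**Figure D5:**
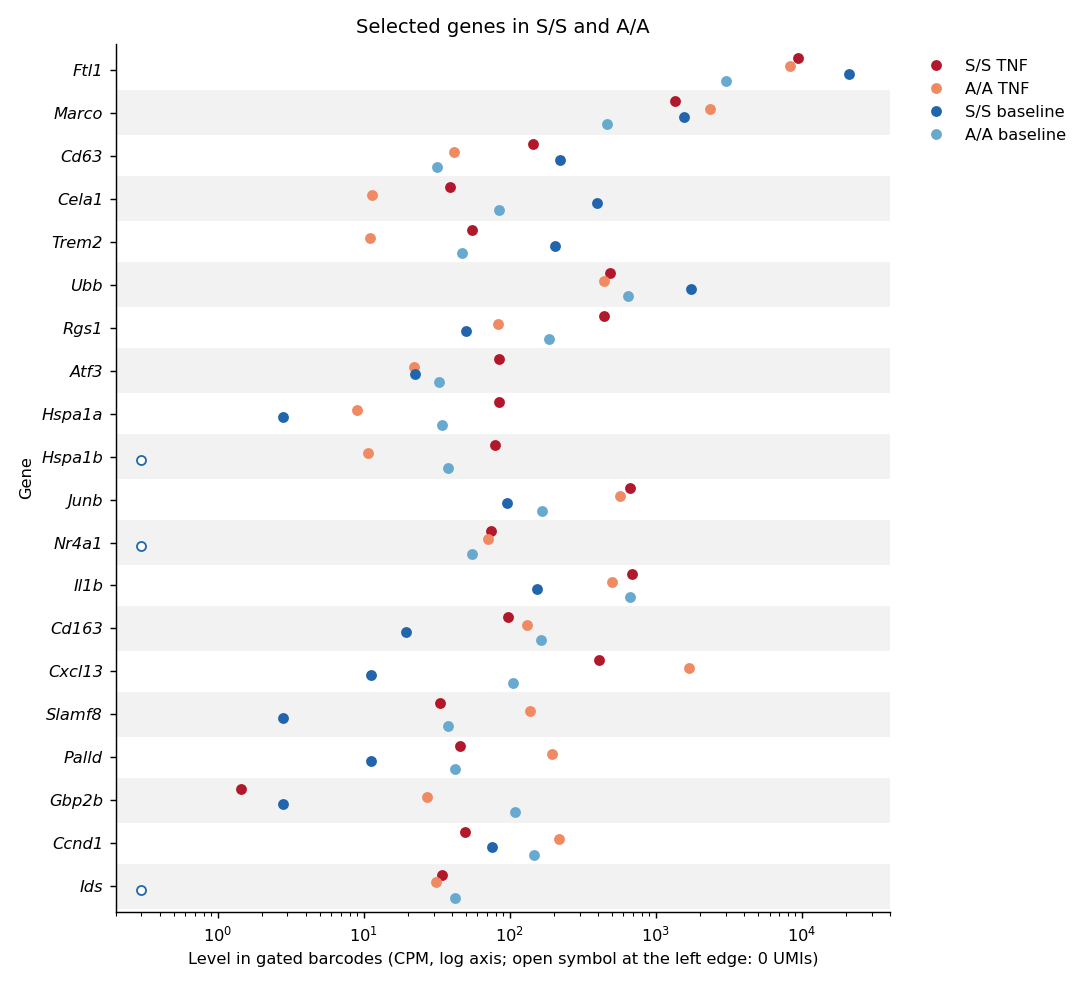
Level (CPM, log axis) of 20 genes in the gated barcodes of each library, 1 point per library, with open symbols for 0 UMIs. Trem2, Cd63 and Cela1 have both S/S points to the right of the A/A points of the same treatment, and Cxcl13, Slamf8, Palld and Gbp2b have them to the left.

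The TNF ratio itself differed between the genotypes for a few genes, as a difference of differences without a test. Rgs1 was at 442 CPM in S/S TNF against 50.4 CPM in S/S baseline, and at 82.6 CPM in A/A TNF against 186 CPM in A/A baseline, higher in S/S TNF and lower in A/A TNF. The heat-shock gene Hspa1a was at 84.9 CPM in S/S TNF against 2.80 CPM in S/S baseline, and at 8.99 CPM in A/A TNF against 34.5 CPM in A/A baseline, in opposite directions too, but 68.6% of its S/S TNF UMIs sat in 1 barcode. Its near-identical neighbour Hspa1b was at 79.1 CPM in S/S TNF against 0 CPM in S/S baseline, and at 10.6 CPM in A/A TNF against 37.5 CPM in A/A baseline. Genes in which S/S baseline had no UMI, such as Kdr and Ids, head the list of larger S/S ratios, and the size of such a ratio depends on the pseudocount. Ids was at 34.5 CPM in S/S TNF, 31.1 in A/A TNF and 42.4 in A/A baseline. Camk2n1, an inhibitor of a calmodulin kinase, had the larger ratio in A/A, at 21.6 CPM in S/S TNF against 16.8 CPM in S/S baseline, and at 126 CPM in A/A TNF against 14.8 CPM in A/A baseline.

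A last comparison set the gated barcodes against 1055 macrophage barcodes that carried at least 3 UMIs of the C1q genes and none of the gate genes (498 in S/S TNF, 145 in A/A TNF, 330 in S/S baseline and 82 in A/A baseline). Over the genes measured in both, the NF-kB list had medians of 3.24 in the gate and 2.09 in these barcodes in S/S, and 2.22 and 2.66 in A/A. Immediate early genes in S/S against A/A at baseline had medians of -1.40 in the gate and -0.07 in these barcodes, a difference that was not tested. Marco stood at 77.6 CPM in these barcodes of S/S TNF, 169 in A/A TNF, 455 in S/S baseline and 9.23 in A/A baseline, and Trem2 at 65.5, 5.47, 183 and 99.2 CPM in the same order.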

How the data were processed

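The deposited files are raw UMI counts per gene and barcode for 55414 genes in each of 4 libraries, aligned to mm39 and counted with Cell Ranger 6.1.2 (TNF libraries) or 7.1.0 (baseline libraries), per the file headers and the submitters' processing notes. Whether intronic reads were counted is not given in the sources used here. No column of another series was present (0).

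Barcodes were gated, and the counts of the gated barcodes were summed per library and scaled to CPM (counts per 1000000 UMIs). Ratios used a pseudocount of 1 CPM. Their 95% intervals are exact conditional binomial intervals without pseudocount, and shares have exact (Clopper-Pearson) binomial intervals. They cover counting error only. A gene was measured if the pair held 20 UMIs or more of it, and called past 2-fold. With 1 library per group there was no test. A fold against 0 UMIs is a bound at a floor of 3 UMIs per library. Shares and list UMIs per barcode were compared after thinning to 1000 UMIs, leaving out shallower barcodes. The complement and scavenging lists were counted for TNF without the gate genes they hold. Doublets were not called; barcodes with other cell markers were left out as an alternative. B cell barcodes (Cd79a present, at least 3 UMIs of Cd79a, Cd79b and Ms4a1) served as a gauge of free RNA.

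Named genes were the gate genes and Kupffer cell genes. To these came the 10 highest and 10 lowest ratios per comparison among genes with 100 UMIs or more, 20 CPM in the higher library, at most 20% of its UMIs in 1 barcode, 10 gated barcodes and no lower level in the gate than outside. Added were 5 genes each way for the difference between genotypes in the TNF ratio, and up to 4 members of each list per TNF comparison or 3 per genotype comparison. The members and gene lists (18 functional and 12 cell type lists, 516 of 518 genes found) were chosen with earlier results of these data known. The scripts were tested on simulated data. Intron lengths were taken by gene ID from an annotation of GRCm38, another build than that of the counts. The work used scipy 1.17.1 and numpy 2.4.6 with pandas 2.3.3, Python 3.11.15 and, for plots, matplotlib 3.10.9.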

Additional observations from a re-analysis of the deposited data

Results flagged for a closer look

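Among the named genes, 6 had TNF ratios past 2-fold in opposite directions in the genotypes, with both intervals clear of 0. These differences were not tested, and each group is 1 library. Values are the S/S log2 ratio of TNF over baseline minus the A/A one.

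The difference was 4.27 for Rgs1, from log2 ratios of 3.11 [2.46 to 3.90] in S/S and -1.16 [-1.47 to -0.88] in A/A. It was 6.33 for Hspa1a, which had 1 UMI in S/S baseline, and 8.05 for its near-identical copy Hspa1b, which had none there, so that this value depends on the pseudocount. It was 3.35 for the endothelial phosphatase Ptprb, whose level was 68.3 CPM in S/S TNF against 16.8 CPM in S/S baseline, and at 99.3 CPM in A/A TNF against 262 CPM in A/A baseline. It was -2.75 for Ttc39c, at 12.9 CPM in S/S TNF against 44.8 CPM in S/S baseline, and at 23.3 CPM in A/A TNF against 10.8 CPM in A/A baseline. It was -2.60 for Ftl1, which shares reads with pseudogene entries. Summed over the ferritin light chain entries, both ratios were below 0, at -1.14 in S/S and -0.31 in A/A.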

How the results depend on the processing

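Counts of genes past 2-fold are given as higher and then lower. No paired analysis was possible because each group has 1 library and replicate numbers pair nothing. The counts as reported were 1780 and 1028 for TNF in A/A, 2102 and 837 for TNF in S/S, 352 and 1153 between genotypes at baseline (S/S over A/A), and 289 and 596 after TNF, of 8900, 6715, 5994 and 8928 genes. Where the pair held 100 UMIs or more they were, in that order, 877 and 298, 695 and 242, 74 and 183, and 89 and 151, of 4156, 2168, 1544 and 4398 genes. With no minimum beyond 1 UMI they were 3028 and 2542, 4559 and 3314, 1959 and 3545, and 1060 and 1479, of 17179, 15348, 14779 and 16893 genes. For genes with under 10 kb of intron they were 665 and 371, 551 and 431, 185 and 229, and 125 and 226, of 3024, 2284, 2054 and 3094 genes. With the whole interval past 2-fold, an alternative chosen after seeing the data, they were 686 and 404, 554 and 292, 53 and 130, and 78 and 100. A pseudocount of 10 CPM gave 966 and 528 for TNF in A/A, 189 and 693 at baseline, and 106 and 149 after TNF. Thinning to 1000 UMIs gave 897 and 519, 504 and 317, 184 and 489, and 152 higher after TNF, of 4372, 1952, 2634 and 3714 genes. Without barcodes carrying other cell markers, 784 of 4935 were higher for TNF in A/A, 563 and 427 of 2640 for TNF in S/S (21.3 and 16.2%), and 168 and 363 of 3372 after TNF. Of these 168 and 363 genes, only 30 and 53 were among the 289 and 596 reported after TNF. With Clec4f, 125 of 304 higher genes and 311 of 617 lower genes after TNF were among them. With every barcode weighing the same, the counts after TNF were 487 and 1045. Centred ratios gave 1353 lower for TNF in S/S and 570 higher at baseline. For TNF in S/S, 1374 were higher with at least 3 gate UMIs and 0.1% of UMIs (of 4517 genes), and 1401 of 4716 with Clec4f, chosen after seeing the data.

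The gated share in S/S TNF, A/A TNF, S/S baseline and A/A baseline was 2.51, 5.91, 2.98 and 11.3% with 2 gate genes required, 2.04, 5.35, 3.07 and 11.1% with at least 3 gate UMIs and 0.1%, and 1.99, 4.81, 2.84 and 10.8% with thinning before the gate. It was 6.62% in A/A TNF and 3.23% in S/S baseline with 500 genes or more and up to 10% mitochondrial UMIs, and 2.35, 6.6 and 3.37% in the first 3 libraries with Clec4f required.

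Among list medians past 2-fold, 4 recomputed values changed sign: T or NK cell genes for TNF in S/S (1.39, at least 3 gate UMIs), dendritic cell genes after TNF (1.30, without other markers), and cell cycle genes at 100 UMIs (0.57 in A/A, 1.39 in S/S). Among named gene ratios past 2-fold, S/S against A/A after TNF turned for Ccl7 (-0.24 without other markers, -0.18 without the top barcode), Il6 (-0.028, thinned) and Mx1 (-0.12, barcodes weighing the same), and TNF in A/A for H2-DMb2 (-0.046 with 2 gate genes, -0.67 with Clec4f). The cause was not tested. The S/S baseline gate, at 357480 UMIs, limits what any comparison with it can show.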
